A study of Mus musculus with 42 samples.

Results

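The immediate early genes of the mouse kidney are described here through 10 members, Fos, Fosb, Jun, Junb, Jund, Egr1, Ier2, Atf3, Btg2 and Dusp1. They were chosen by name, and all 10 were found among the 56691 genes of the deposited tables. The series sequenced kidney RNA of male wild-type C57BL/6 mice around the day, with collection at ZT (zeitgeber time, in hours from the start of the light phase) 1, 5, 9, 13, 17, 21 and 25. The mice entered the study at 6 weeks of age, lived under 12 h of light and 12 h of darkness, and ate their diet for 14 weeks. One group ate a standard chow diet. The other ate a high-fat diet with 3% EpSA, which the labels give by this abbreviation. The 42 samples hold no group on the high-fat diet alone, so the fat and the EpSA cannot be told apart. The labels list 42 mice, 3 for each diet and time, and the deposited tables hold 1 value per gene, diet and time. Each of these 14 columns is read as the mean of 3 mice and is called a pool. Values are taken as FPKM, a level scaled to gene length and library size, a unit that the headers do not name, and are thus compared between genes per length. The spread between mice is thus hidden, and every error below is a spread between times.

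Immediate early genes are switched on within minutes of a stimulus, without new protein synthesis, and their short-lived transcripts soon disappear again. Serum response factor with its ternary complex partners, and CREB at cyclic AMP response elements, carry signals from MAP kinases and cyclic AMP to their promoters. Fos and Jun proteins pair through leucine zippers to form the transcription factor AP-1, and Fos proteins need a Jun partner to bind DNA. In kidney, these genes are known for their fast induction by ischaemia and growth factors.

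Promoters are shown for 3 members, the ones whose values the sections below turn on: Fos and Dusp1 for their ZT 1 values, and Jun for its difference between diets. Each is the RefSeq window on GRCm38.p6, from 250 bases before to 50 bases after the start of transcription, and 8 of the 10 members have such a window. Capitals in Fos mark TGACGT, the core of the cyclic AMP response element, and TATAAA, the TATA box. Capitals in Jun mark TGACATCA, a variant of that response element known to bind Jun with ATF partners. Capitals in Dusp1 mark TGACGT and the full palindrome TGACGTCA. The windows lie at chr12:85473640-85473939 on the plus strand, chr4:95052173-95052472 on the minus strand and chr17:26508423-26508722 on the minus strand.
Fos: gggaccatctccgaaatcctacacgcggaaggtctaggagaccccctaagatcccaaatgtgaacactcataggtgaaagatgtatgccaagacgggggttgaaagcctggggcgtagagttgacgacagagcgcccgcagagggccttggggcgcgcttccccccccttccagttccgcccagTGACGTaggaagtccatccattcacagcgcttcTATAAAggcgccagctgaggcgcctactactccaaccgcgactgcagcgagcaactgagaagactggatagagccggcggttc
Jun: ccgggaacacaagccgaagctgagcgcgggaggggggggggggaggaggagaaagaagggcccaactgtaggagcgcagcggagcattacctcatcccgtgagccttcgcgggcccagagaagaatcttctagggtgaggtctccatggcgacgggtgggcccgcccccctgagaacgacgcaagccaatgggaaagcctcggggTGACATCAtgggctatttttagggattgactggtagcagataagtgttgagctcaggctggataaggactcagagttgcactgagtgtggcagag
Dusp1: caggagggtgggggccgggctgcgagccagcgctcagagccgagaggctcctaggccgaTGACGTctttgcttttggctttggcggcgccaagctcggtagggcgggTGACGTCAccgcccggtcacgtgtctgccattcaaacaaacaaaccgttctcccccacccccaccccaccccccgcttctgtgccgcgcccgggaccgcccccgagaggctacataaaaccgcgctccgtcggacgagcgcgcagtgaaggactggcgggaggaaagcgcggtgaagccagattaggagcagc

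Both strands of the 8 windows were searched, and positions count from the start of transcription. TGACGT began at position -66 in Fos, beside a TATAAA at -33. The Jun window held TGACATCA at -45. Dusp1 held TGACGTCA at -143 and a separate TGACGT at -191. TGACGTCA contains TGACGT, and was also present in Btg2, at -166, so 2 of the 8 windows held the palindrome. Among 32851 windows of the same length, 1.79% held TGACGTCA. TGACGT was present in 4 of the 8, Fos, Atf3, Btg2 and Dusp1, against 7.51% of all windows. TGACATCA was present in 1 of the 8 and in 3.62% of all windows. TATAAA was in 2 of the 8, Fos and Junb, against 13.6%, and in Junb it began at position 1. Other letters searched were GGGCGG, in 6 of the 8 against 35.7%, GCGNGGGCG, in 2 against 5.55%, and CACGTG, in 1 against 7.15%. The AP-1 site TGACTCA was in none of the 8 windows and in 5.2% of all windows. The CArG box, the site of serum response factor, was also in none, against 1.63%, and these letters may lie outside the window. In Jund, Atf3 and Dusp1, the RefSeq start lay 1210, 34706 and 53656 bases from the start of the GENCODE gene, where no window was searched. A match is a description of letters, and binding was not measured.

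In GRCm38, Jun is a gene of 1 exon at chr4:95049034-95052222 on the minus strand, and Jund a gene of 1 exon at chr8:70698949-70700616 on the plus strand. Fos lies at chr12:85473890-85477273 on the plus strand, with 4 exons. Whether the authors used this build is not known here.

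The pools summed to between 400590 and 435621 FPKM, with 27796 to 29783 genes above 0. Markers of the proximal tubule, the main cell of the kidney cortex, summed to between 31800 and 65610 FPKM per pool. Kap alone ranged from 33834.267 to 62960.483 FPKM in chow and from 29285.573 to 40317.347 in EpSA, so these sums mostly follow 1 gene. Markers of thick ascending limb and distal tubule summed to between 873.8 and 1529 FPKM. Summed markers of immune cells stood apart in 4 chow pools, with 1078, 606, 564.7 and 1236 FPKM at ZT 1, 5, 9 and 13. The sums were 242.5 to 292.5 in the other chow pools and 249.1 to 318.7 in the EpSA pools. Cd74 had the highest mean of these markers and ranged from 99.017 to 796.37 FPKM in chow, so it weighs heavily in the sums. Ptprc ranged only from 0.99 to 1.733 FPKM in chow. All 13 tested immune markers had lower values in EpSA. Adrenal markers summed to 110.8 FPKM in the EpSA pool at ZT 9 and to at most 1.656 in each other pool. The red blood cell markers had lower values in EpSA in 6 of 6 tested genes, and the podocyte markers higher values in 8 of 8. In bulk tissue, fewer cells of a type and less RNA per cell cannot be told apart.

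The members spanned a wide range of levels. Jund was the most abundant, with a mean of 27.97 FPKM over the 14 pools, above 87.97% of the 13344 genes tested. Dusp1 followed with 11.46 FPKM, Jun with 9.549, Btg2 with 7.449, Junb with 5.274 and Ier2 with 5.048. Egr1 was at 1.215 FPKM, above 4.729% of tested genes. Atf3, Fos and Fosb were lower still, at 0.8212, 0.5959 and 0.04536 FPKM. These 3 members fell short of the filter, a mean of at least 1 FPKM over all 14 pools, and were described but not fitted, so 7 of the 10 members were tested.

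The order was not equally firm at each step. Junb was above Ier2 in only 9 of 14 pools, so this pair cannot be ordered. Dusp1 exceeded Jun in 12 of 14 pools and Jun exceeded Btg2 in 12 of 14. Atf3 was above Fos in 13 of 14 pools, the chow pool at ZT 1 being the exception. The other neighbours kept their order in 14 of 14 pools, but their ranges were separate only between Jund and Dusp1, between Ier2 and Egr1, and between Fos and Fosb.

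**Figure D1:**
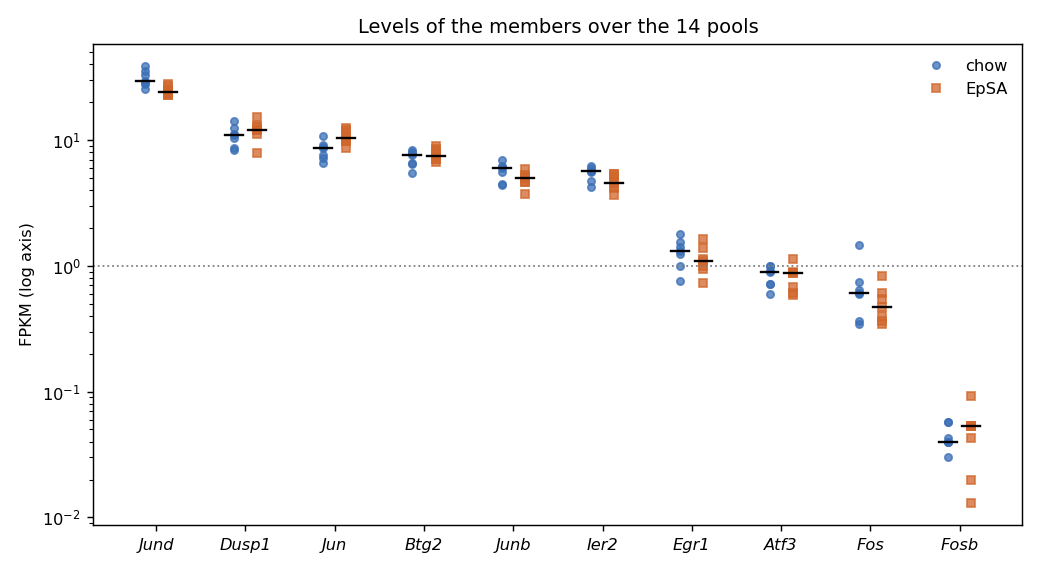
Level of each of the 10 members in FPKM on a log axis, with 1 point per pool, 7 for chow and 7 for EpSA. Jund is highest at 22.853 to 38.97 FPKM, Fosb lowest at 0.013 to 0.093 FPKM, and the diets' ranges overlap in every member.

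The AP-1 subunits of the Jun family differed in direction between diets, although none passed the test. Jun, a strong activating subunit, ranged in chow from 6.53 to 10.8 FPKM with a median of 8.603, and in EpSA from 8.63 to 12.58 with a median of 10.337. The EpSA pool was the higher one at 6 of 7 times, all but ZT 5, and the ranges overlapped. Its mean difference on the log2(FPKM + 1) scale, EpSA minus chow, was 0.32 ± 0.07 (SE from limma on 14 pools), with an adjusted p of 0.0845 by Benjamini-Hochberg. The gap was 0.09 at ZT 1 and -0.03 at ZT 5, and lay between 0.39 and 0.54 from ZT 9 to ZT 25. Thus the diets' values of Jun were close in the first 2 pools and apart in the last 5, a split that was not tested. ZT 25, the same clock time as ZT 1 a day later, had the largest gap, 0.54, against 0.09 at ZT 1.

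Jund, known as the subunit present in resting cells, lay on the other side. Its chow pools ranged from 25.52 to 38.97 FPKM with a median of 29.503, and its EpSA pools from 22.853 to 27.773 with a median of 24.247. The EpSA pool was the lower one at 7 of 7 times, with the smallest gap, -0.03, at ZT 17 and the largest, -0.74, at ZT 21. The mean log2 difference was -0.32 ± 0.07, with an adjusted p of 0.09 in limma. Among all genes tested, 4.13% were lower in EpSA at 7 of 7 times. Junb, often induced beside Fos and a weaker activator than Jun, ranged from 4.367 to 6.947 FPKM in chow and from 3.72 to 5.9 in EpSA, lower in EpSA at 5 of 7 times. Its log2 difference was -0.18 ± 0.09, with an adjusted p of 0.332 in limma, and was -0.08 without ZT 13 and -0.06 without ZT 1 and ZT 13.

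Jun and Jund were also set against each other within each pool. The ratio of Jun to Jund ranged from 0.2208 to 0.3579 in chow, with a median of 0.2493, and from 0.3107 to 0.5189 in EpSA, with a median of 0.4296. It was higher in EpSA at 7 of 7 times, while the 2 ranges overlapped. This ratio was chosen after the values were seen and has no test. Jun made up 16 to 23.32% of the summed Jun, Junb and Jund level in chow and 20.4 to 29.88% in EpSA. Jund made up 65.16 to 72.48% in chow and 57.59 to 65.65% in EpSA. The summed level itself was 39.16 to 53.76 FPKM in chow and 36.41 to 43.2 in EpSA, higher in EpSA at 1 of 7 times.

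**Figure D2:**
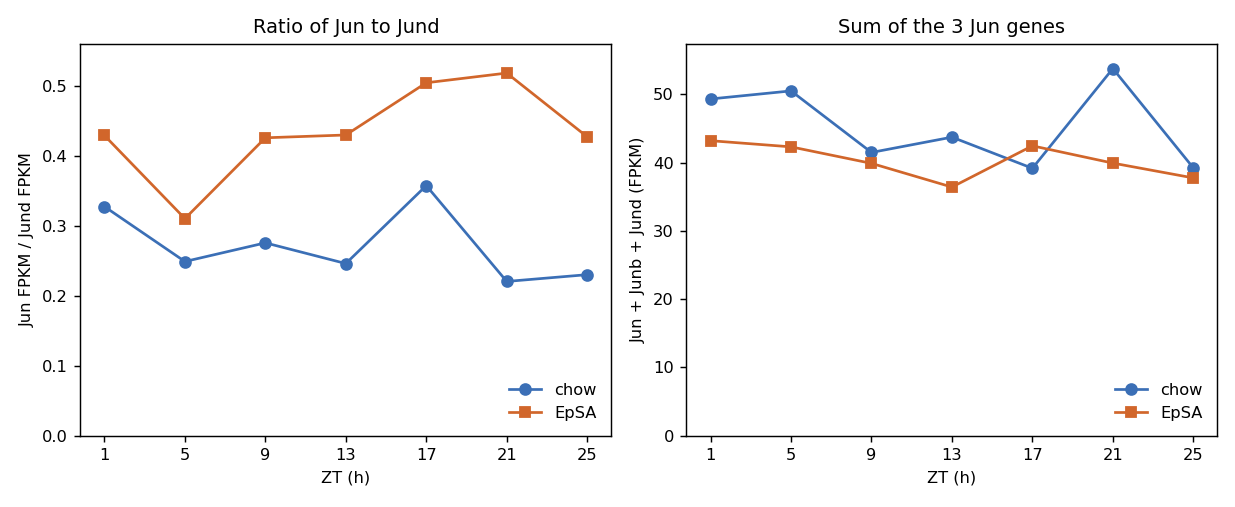
Jun family in each pool by ZT in hours: the ratio of Jun to Jund, and the summed level of Jun, Junb and Jund in FPKM. The EpSA ratio lies above the chow ratio at 7 of 7 times, with medians of 0.4296 and 0.2493.

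The Fos family members Fos and Fosb were scarce beside Jun, Junb and Jund. Fos, the inducible AP-1 subunit, reached 1.467 FPKM in the chow pool of ZT 1 and lay between 0.343 and 0.747 in the other 6 chow pools. In EpSA it was at 0.83 FPKM at ZT 1 and between 0.347 and 0.613 at the other times. ZT 1 was thus the highest pool in both diets. The EpSA pool was lower at 5 of 7 times, with a mean log2 difference of -0.14, and an exact two-sided sign-flip test of the 7 differences gave an unadjusted p of 0.188. The difference was -0.09 without ZT 1, -0.05 without ZT 1 and ZT 13, and -0.28 with a pseudocount of 0.1. Fosb, whose long and short forms also pair with Jun proteins, stayed at or below 0.093 FPKM in all pools. The summed Jun family exceeded the summed Fos and Fosb level by 32.35 to 132.4 times in chow and by 48.93 to 108.7 times in EpSA. Fosl2 and Fosl1, relatives of Fos outside the members, are not in that sum. Their means over the 14 pools were 2.067 and 0.01536 FPKM, so Fosl2 stood above Fos and Fosb.

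Atf3, a stress-induced partner of Jun that often represses, ranged from 0.603 to 1.003 FPKM in chow and from 0.587 to 1.133 in EpSA. It was higher in EpSA at 3 of 7 times, and its mean log2 difference was -0.02. That difference has no fixed direction, being 0.0159 without ZT 13 and 0.0051 without ZT 9. Egr1, a zinc finger factor induced through serum response factor, ranged from 0.753 to 1.797 FPKM in chow and from 0.73 to 1.637 in EpSA. Its log2 difference was -0.10 ± 0.08, with an adjusted p of 0.502 in limma, and EpSA was higher at 3 of 7 times. It was -0.05 without ZT 13, -0.06 without ZT 21, -0.02 without ZT 1 and ZT 13, and -0.18 with a pseudocount of 0.1. Neither factor separated the diets.

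The other 3 members act outside AP-1. Ier2, a nuclear protein induced by growth factors, ranged from 4.21 to 6.237 FPKM in chow and from 3.643 to 5.387 in EpSA, and was lower in EpSA at 6 of 7 times. Its log2 difference was -0.20 ± 0.07, with an adjusted p of 0.207 in limma. Among all tested genes, 14.9% were lower in EpSA at 6 or more times. Btg2, an antiproliferative protein that recruits the CCR4-NOT deadenylase, ranged from 5.513 to 8.303 FPKM in chow and from 6.76 to 9.01 in EpSA. Its difference of 0.10 ± 0.09 had an adjusted p of 0.576 in limma. It was 0.04 without ZT 17, 0.06 without ZT 21 or without ZT 25, 0.16 without ZT 13 and 0.22 without ZT 1 and ZT 13.

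Dusp1, the phosphatase that switches off p38, JNK and ERK, ranged from 8.307 to 14.28 FPKM in chow and from 7.843 to 15.217 in EpSA. It was higher in EpSA at 6 of 7 times, a share reached by 12.4% of all tested genes. The exception was ZT 1, where chow had its highest value, 14.28 FPKM, and EpSA its lowest, 7.843, a log2 gap of -0.79. The mean log2 difference was 0.13 ± 0.13, with an adjusted p of 0.634 in limma. Without ZT 1 it was 0.28, with an adjusted p of 0.0945, so the size of the difference rests on whether ZT 1 is included.

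Across the 7 tested members, 0 passed the adjusted threshold of 0.05 for diet in limma, beside 0.0225% of all genes tested. At an unadjusted p under 0.05 there were 3 of 7, beside 19.1% of all genes. Of these Jun was higher in EpSA, beside 8.76% of genes, and Jund and Ier2 were lower, beside 10.3%. Exact sign flips of the 7 time differences, two-sided and unadjusted, gave p = 0.0312 for Jun, 0.0156 for Jund, which is the smallest they can give, and 0.0469 for Ier2. The median absolute log2 difference of the 7 tested members was 0.179, against 0.071 over all genes. Their signs were mixed, 3 higher and 4 lower. No member had 7 EpSA pools all on 1 side of the 7 chow pools, against 0.427% of genes above and 0.465% below. At no time were the diets 1 log2 unit or more apart in a tested member, against 3.78% of all genes.

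**Figure D3:**
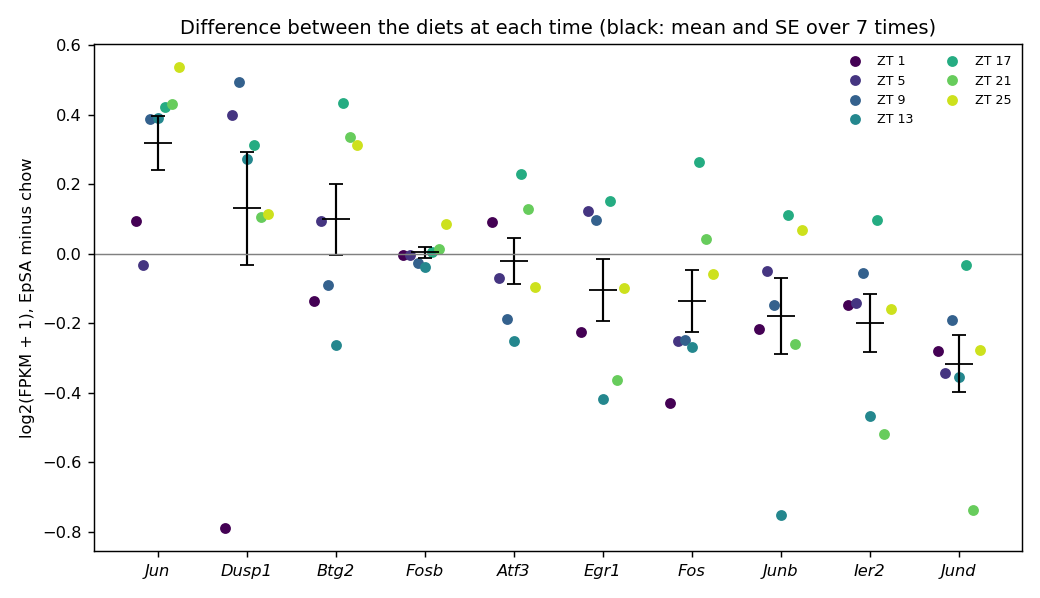
Difference between diets in log2(FPKM + 1), EpSA minus chow, for each member, with 1 point per time and the mean over the 7 times. Jun lies above 0 at 6 of 7 times and Jund below 0 at 7 of 7.

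The direction of the difference was also counted by time. The EpSA pool was below chow in 8 of 10 members at ZT 1, in 7 at ZT 5 and at ZT 9, and in 8 at ZT 13. At ZT 17 it was above chow in 9 of 10, the exception being Jund. At ZT 21 it was above in 6 and at ZT 25 in 5. Among the 7 tested members alone, EpSA was above chow in 1 at ZT 1, where 43.2% of all genes were, in 3 at ZT 5 (40.4% of genes), in 3 at ZT 9 (43.4%) and in 2 at ZT 13 (37.9%). It was above in 6 of them at ZT 17 (57.6% of genes), in 3 at ZT 21 (59.6%) and in 4 at ZT 25 (52.3%). The median log2 difference of tested members was -0.355 at ZT 13, against -0.053 over all genes, and 0.151 at ZT 17, against 0.028. At ZT 21 it was -0.261, against 0.069, so the 6 members above chow there include the low Fos, Fosb and Atf3. ZT 1, 5, 9 and 13 are the times at which the summed immune markers of chow were raised, and their part in these differences was not tested. Without ZT 1 and ZT 13, the log2 difference was 0.35 for Jun, -0.32 for Jund and -0.16 for Ier2, with adjusted p of 0.224, 0.284 and 0.455 in limma.

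Levels over the day also differed between members. In chow, 6 of the 10 members were highest at ZT 1, 3 at ZT 13 and 1 at ZT 21. Their lowest chow pool was ZT 17 in 5 members and ZT 25 in 4. In EpSA, 6 of the 10 members were lowest at ZT 13. The shares of all genes with their highest or lowest pool at each time were not computed. The median log2 level over tested genes was 2.6455 in that pool, against 2.6944 to 2.7383 in the other EpSA pools. Summed fat markers were lowest at ZT 13 in EpSA, at 63.97 FPKM, and at ZT 17 in chow, at 116.2. They were highest at ZT 5, at 327.1 and 276.8 FPKM, and their part was not tested. The highest and lowest pools were at least 0.5 log2 units apart in 6 of 7 tested members in chow, beside 23.7% of all genes, and in 3 of 7 in EpSA, beside 20.7%. In no tested member were they 1 unit apart, beside 4.1% and 3.74%. The median range of tested members was 0.592 in chow against 0.33 for all genes, and 0.496 in EpSA against 0.314.

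**Figure D4:**
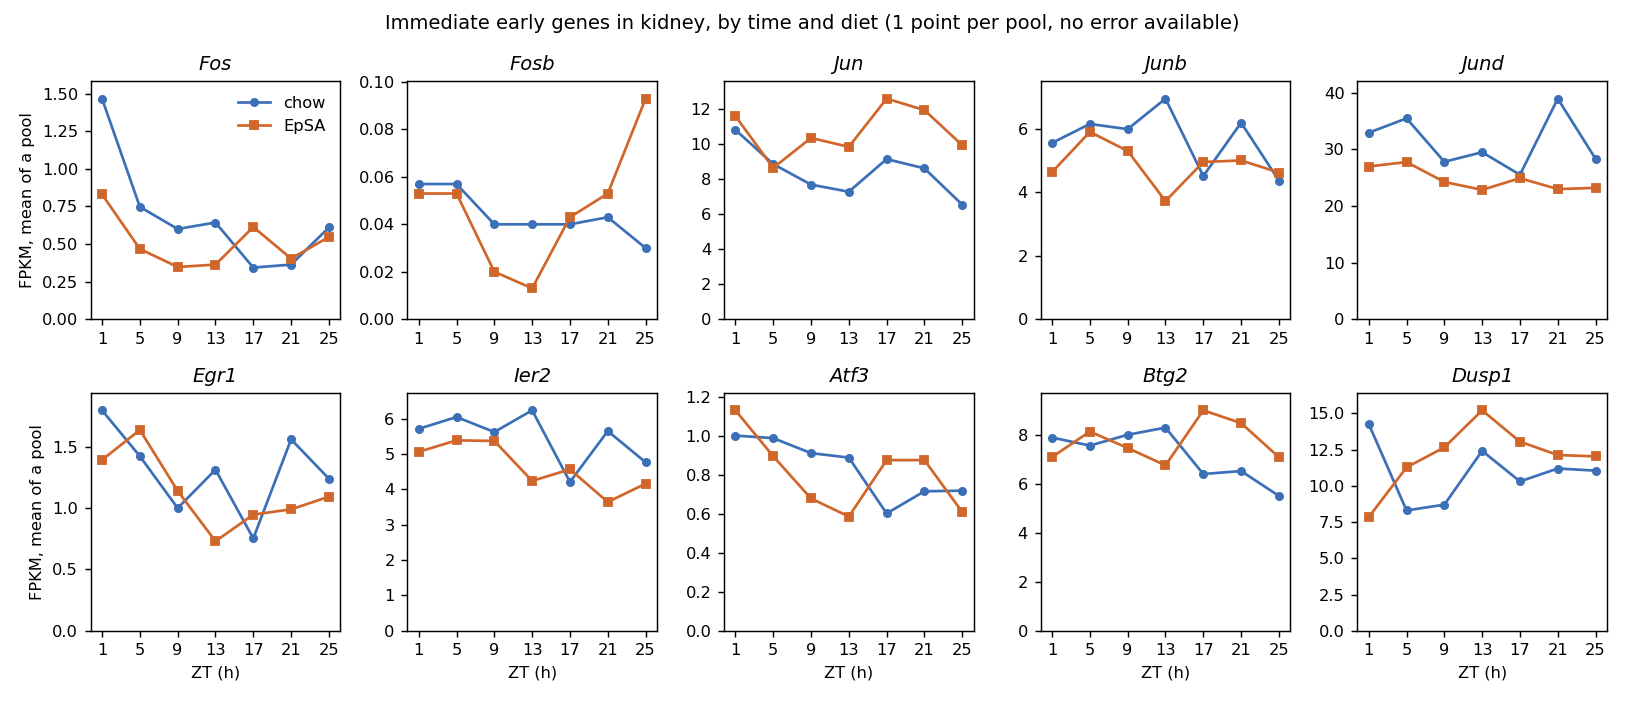
Level of each member in FPKM by ZT in hours, with 1 line per diet and 1 point per pool. Fos and Dusp1 in chow are highest at ZT 1, at 1.467 and 14.28 FPKM, and EpSA is above chow in 9 of 10 panels at ZT 17.

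A 24 h cosine fitted to log2(FPKM + 1) called 0 of 7 members in chow after adjustment, beside 0.0674% of all genes, and 0 of 7 in EpSA, beside 0.0525%. At an unadjusted p under 0.05 in limma it called 0 members in chow, beside 10.4% of genes, and 1 in EpSA, beside 8.52%. That member was Egr1, with an amplitude of 0.22 ± 0.06 and a peak at 3.95 h (adjusted p = 0.555 in limma). Dusp1 in EpSA had the largest amplitude among tested members, 0.26 ± 0.09, with a peak at 13.59 h and an adjusted p of 0.591 in limma. In chow its amplitude was 0.19 ± 0.12, with a peak at 20.34 h. The difference of rhythm between diets was called for 0 of 7 members, beside 0.0% of all genes, and for 0 of 7 at an unadjusted p under 0.05 in limma, beside 4.63%. Its lowest p among members was that of Dusp1, 0.117, with an adjusted p of 0.82 in limma.

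The authors' deposited table of rhythm statistics gave a similar count. In the authors' deposited table, 0 of 10 members had a meta2d p under 0.05 in chow, where 11.8% of the genes tested here did. For EpSA, the authors' deposited table had 3 of 10 members under 0.05, 2 of them among the 7 tested, where 9.82% of genes did. These were Dusp1 with p = 0.00597 and q = 0.557, Fosb with p = 0.0101 and q = 0.68, and Egr1 with p = 0.0297 and q = 0.99, each as given in the authors' deposited table. The phase of Dusp1 in EpSA was 13.39 h in the authors' deposited table. No member had a q under 0.05 in the authors' deposited table, beside 0.0% of genes in chow and 0.015% in EpSA.

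ZT 25 is the same clock time as ZT 1, 1 day later, and gives a second reading of it from other pools. In chow, all 10 members were lower at ZT 25 than at ZT 1, 7 of 7 among tested members, where 60.6% of all genes were lower. Fos at ZT 25 stood at 0.4158 of its ZT 1 level, Jun at 0.6045, and Btg2 at 0.6981. In EpSA, 8 of 10 members were lower, 6 of 7 among tested ones, where 50.9% of genes were lower. Among them Junb and Btg2 were all but level, at 0.9972 and 0.999 of ZT 1. The exceptions were Dusp1, at 1.535 times its ZT 1 level, and Fosb, at 1.755 times a level of 0.053 FPKM. The median log2 change from ZT 1 to ZT 25 in tested members was -0.32 in chow, against -0.043 over all genes, and -0.193 in EpSA, against -0.005. The summed immune markers in chow were 1078 FPKM at ZT 1 and 292.5 at ZT 25, and 251.2 and 259.1 in EpSA. The high chow values of Fos and Dusp1 at ZT 1 therefore did not recur in the ZT 25 pool.

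**Figure D5:**
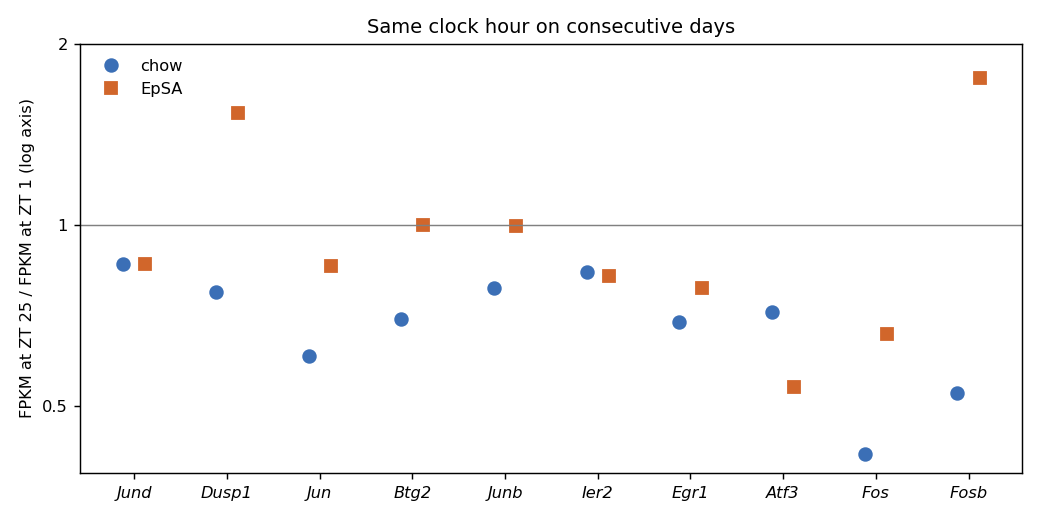
Ratio of the ZT 25 level to the ZT 1 level, each in FPKM, for each member and diet on a log axis, with a line at equal levels. All 10 chow ratios lie below the line, and in EpSA Dusp1 and Fosb lie above it, at 1.535 and 1.755.

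Members' levels were also compared with each other over the 14 pools, which share 7 times and 2 diets, so correlations are descriptions of z-scored log2 levels. The highest among tested members was between Junb and Ier2, with r = 0.78 (0.92 over the 7 chow pools and 0.48 over the 7 EpSA pools). Jund followed Ier2 with r = 0.76 and Egr1 with r = 0.73. Jun had r = -0.44 to Ier2 and -0.38 to Jund over the 14 pools, but these negative values were not kept within both diets. To Ier2 it was 0.05 in chow and -0.38 in EpSA, and to Jund 0.34 in chow and -0.20 in EpSA. The 5 genes closest to the mean z-score of tested members over the 14 pools were Laptm4a (r = 0.89), Cdh1 (0.88), H2afy (0.87), Fst (0.86) and Crip2 (0.86). Of these 5, 3 were still among the nearest by Spearman's rho, and 3 after each diet was centred on its own mean. For single members, the closest gene was Nfe2l2 for Jun (r = 0.89), Slc8b1 for Junb (0.90), Atp6v0b for Jund (0.97), Itgb1bp1 for Egr1 (0.92), Ap5s1 for Ier2 (0.94), Trim30a for Btg2 (0.91) and Tsc22d1 for Dusp1 (0.82). These genes are the nearest among the tested genes outside the members, with genes known only by a model or clone number passed over. Such maxima are high in any set of 14 points.

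Other immediate early genes and the pathway around the members were read from lists, by their direction in EpSA and the number called in limma. Of 21 other immediate early transcription factors, 15 were tested, 11 were higher and 4 lower, and 0 were called for diet. Nr4a1, an orphan nuclear receptor, differed by 0.20 and Klf4, a zinc finger factor, by 0.16, with adjusted p of 0.2 and 0.217 in limma. Nfil3, a repressor linked to the circadian clock, was the only gene of these lists called in any of the 4 comparisons as fitted here, for its rhythm in chow, with an amplitude of 0.97 and an adjusted p of 0.043 in limma. It was not called under 12 of 15 alternative settings, among them the omission of any 1 time, and its adjusted p in limma ranged from 0.0315 to 0.346 over the 15. Of 33 other immediate early regulators, 28 were tested, 17 higher and 11 lower, with 0 called for diet. The largest differences there were Sgk1, a kinase of salt transport, at 0.39 and Ccn2, a matrix protein, at 0.39 (adjusted p = 0.237 and 0.0906 in limma). Both lists thus held genes of either direction, with more higher than lower, whereas 3 of the 7 tested members were higher and 4 lower.

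Upstream and downstream lists were likewise without a call for diet. Of 20 MAP kinases, 19 were tested, 8 higher and 11 lower, and Map2k2, the kinase MEK2, was lower at 7 of 7 times with a difference of -0.22 (adjusted p = 0.104 in limma). Of 7 serum response and ternary complex factors, 6 were tested, 3 higher and 3 lower. Of 10 EGF receptor ligands and receptors, 7 were tested, 3 higher and 4 lower, with Erbb4 at -0.23 and Hbegf at -0.17. Of 19 partners and relatives of AP-1, 16 were tested, 9 higher and 7 lower. Of 18 genes linked to AP-1 as targets, 13 were tested, 4 higher and 9 lower, and Met, the receptor of hepatocyte growth factor, was lower at 7 of 7 times with a difference of -0.25 (adjusted p = 0.0873 in limma). All 20 genes of the decay of AU-rich transcripts were tested, 10 higher and 10 lower. Of 12 heat shock genes, 8 were higher and 4 lower, with Hsp90aa1 at 0.20. Of 12 glucocorticoid targets, 11 were tested, 7 higher and 4 lower, with Cdkn1a, a cell cycle inhibitor, at 0.58 and Fkbp5 at -0.39. Median log2 differences of these upstream and downstream lists lay between -0.083 and 0.08, against -0.01 over all genes.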

How the data were processed

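RNA from the kidneys of 42 mice was read in pairs of 150 bases, per the labels. The authors deposited expression values in 2 tables of 7 columns, taken as FPKM, whose decimals are those of means of 3. Deposited p-values, q-values, phases and amplitude ratios of meta2d stand beside them, per the file headers. Aligner, build, counting and depth are not given in the sources used here. Counting error can thus not be stated.

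The 13344 genes whose mean reached 1 FPKM were fitted as log2(FPKM + 1), a scale that understates fold changes of low genes, with limma 3.58.1 in R 4.3.3. Diet was fitted beside time as a factor (6 residual degrees of freedom). Rhythm was a 24 h cosine (4 per diet, 8 for the difference). P-values were adjusted by Benjamini-Hochberg over all genes. On simulated data over 13344 genes, the diet model recovered 93 of 100 genes changed by 0.5 and 98 of 100 changed by 1, and made 13 false calls. Recovery of rhythm in chow was 85 and 98 of 100, with 12 false calls, and for the difference of rhythm 58 and 93, with 9. The simulated noise had only the spread left by the diet model, which takes out time. Real fits of rhythm carry other changes over the day as error, so these recoveries of rhythm cannot be carried over to the real data. Nfil3 in EpSA, for example, had an amplitude of 1.09 and an adjusted p of 0.197 in limma. The recoveries of diet hold for that noise only, and recovery at the members' own spread was not tested. Some large diet differences were not called, while 3 of all genes tested were. Cd74 differed by -1.10 ± 0.38, with an adjusted p of 0.179 in limma. Hba-a2, a red blood cell marker, differed by -0.88 ± 0.24, with an adjusted p of 0.116 in limma.

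The members and lists were chosen with earlier results of these data known. The text names all members, list genes that passed a test or had one of the 4 largest diet differences of their list, the 5 genes nearest to the members' mean and the nearest to each. Fosl1, Fosl2 and Ptprc are named beside these for their levels. Promoters came from RefSeq, gene positions from GENCODE (GRCm38). Alternatives covered pseudocount, filter, scaling, test and times left out. Tables were handled in pandas 2.3.3 under Python 3.11.15, and figures drawn with matplotlib 3.10.9.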

Additional observations from a re-analysis of the deposited data

How the results depend on the processing

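The number of members called for diet, for rhythm in chow, for rhythm in EpSA and for the difference of rhythm was 0 under each alternative that used adjusted p-values, with other pseudocounts, filters, scalings, prior spreads and times left out, leave-one-out counts running from 0 to 0. By exact sign flips, Jun, Jund and Ier2 had an unadjusted p under 0.05 for diet. The share over all genes was not computed for this test, so no count of members is read from it. At an unadjusted p under 0.05 in limma, 3 of 7 tested members and 19.1% of all genes were called. Of the 5 genes nearest to the members' mean, 3 stayed among the nearest by Spearman's rho and 3 with diets centred. The log2 difference of Jun lay between 0.28 and 0.38 and that of Jund between -0.36 and -0.25 over the alternatives. Over all genes, limma called 3 for diet, but 71 with a mean of at least 5, 31 with a prior spread that follows expression, 11 with no filter, 6 with medians set equal, 0 to 4 with 1 time left out, and 0 without ZT 1 and ZT 13. For rhythm in chow it called 9 genes, but 4 after quantile normalization, 0 to 2 with 1 time left out, and 0 with a pseudocount of 0.1, with no filter or without ZT 1 and ZT 13. For rhythm in EpSA it called 7, but 4 with medians set equal, 3 with a pseudocount of 0.1, 2 to 6 with 1 time left out, and 0 with no filter or without ZT 1 and ZT 13. Leaving out ZT 1 and ZT 13, the trend prior and the scaling to one sum were chosen after seeing the data. No paired analysis was possible because the columns are pool means with no replicate number, so mice could not be paired, while the diet model and the sign flips do pair the diets by time. A pool mean hides the spread between its mice.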
